A study of Mus musculus with 12 samples.

Results

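Olig1, Olig2 and Olig3 encode the OLIG transcription factors. Their RNA was followed here in mouse embryonic stem cells of 4 genotypes, as 3 genes of 43346 gene IDs in the deposited table. The genes were chosen by their own RNA levels across the genotypes: Olig1 and Olig2 were picked as following the background strain, and Olig3 as following the allele of an introgressed segment. Those same levels are therefore given below as a description, without a test. The cells were parental C57BL/6J (B6), parental DBA/2J (D2), and a reciprocal pair of congenic lines. B6-13D2, with genotype B6.D2-(rs30079041-rs51756099)/Bakr, carries a D2 segment of chromosome 13 on the B6 background. D2-13B6, with genotype D2.B6-(rs29224292-rs13469455)/Bakr in the sample labels, carries the reciprocal B6 segment on the D2 background. All 4 genotypes grew in serum with LIF, the MEK inhibitor PD0325901 and the GSK3 inhibitor CHIR99021, and none was differentiated.

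OLIG proteins are basic helix-loop-helix (bHLH) factors: the basic stretch contacts DNA at E-boxes, and the helices pair the protein with a partner. In the developing spinal cord, Olig2 is induced by Hedgehog signalling, acts mainly as a repressor, and is needed for motor neurons and then for oligodendrocytes, while its neighbour Olig1 acts later, in oligodendrocyte maturation and myelin repair. Olig3 is a dorsal counterpart that marks progenitors of dorsal interneurons. None of the 3 is a recognised marker of undifferentiated embryonic stem cells.

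Each genotype had 3 libraries, with totals from 22184196 to 36411799 expected counts. The protocol describes 3 cultures of the same line per genotype, so strain and line cannot be told apart. The titles speak of technical replicates instead, and p-values measure the spread between these samples. The labels also conflict elsewhere: B6 replicate 3 bears another line name than B6 replicates 1 and 2, the D2 titles and the D2 cell line field name different lines, and the design text ends the D2-13B6 segment at rs51756099. The table's columns for congenic libraries have a prefix missing from the parental columns, and a batch it might record cannot be told apart from congenic status. Of 10 pluripotency markers checked against the labelled cell type, none was under 0.5 CPM (counts scaled to a common library size) on average in any group, and their sums were 5400 to 5750 CPM in B6, 6270 to 6560 in B6-13D2, 3600 to 3680 in D2 and 4510 to 4580 in D2-13B6. The libraries also held RNA of fibroblast markers, whose source was not tested. The 9 markers summed to 10500 to 11300 CPM in B6, 3410 to 3490 in B6-13D2, 15800 to 18700 in D2 and 8550 to 8870 in D2-13B6. The fibroblast sum was thus furthest apart between B6-13D2 and D2, and less so, though still without overlap, between D2-13B6 and B6. The markers were unequal: in B6, Col1a1 had 6430 CPM on average, Col1a2 2620 and Acta2 1120, but Dcn 1.37 and Lum 2.24.

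**Figure D1:**
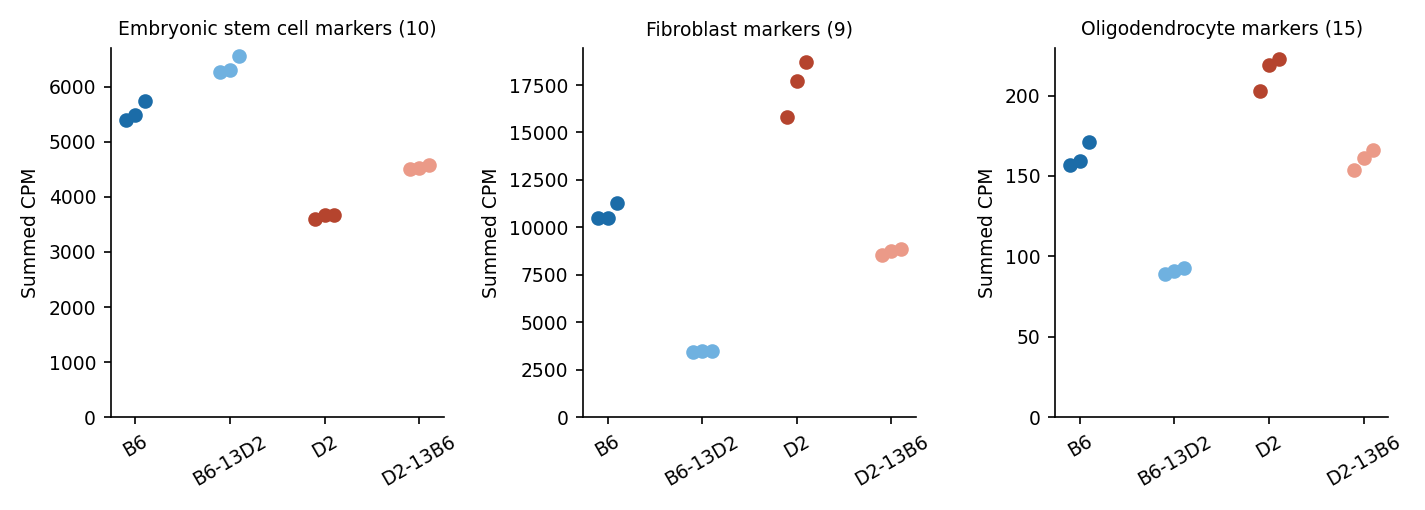
Summed CPM of 10 embryonic stem cell markers, 9 fibroblast markers and 15 oligodendrocyte lineage markers in each library (vertical axes, linear, from 0; points, 3 libraries of each of B6, B6-13D2, D2 and D2-13B6). B6-13D2 was lowest for fibroblast markers (3410 to 3490 CPM) and D2 highest (15800 to 18700 CPM), while B6 (10500 to 11300 CPM) and D2-13B6 (8550 to 8870 CPM) lay between them.

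Olig1 (ENSMUSG00000046160) lies on chromosome 16 at 91269772 to 91271933, plus strand, with 1 exon (GRCm38, GENCODE M21). Olig2 (ENSMUSG00000039830) lies on the same strand at 91225457 to 91228677 with 2 exons, its start 44.3 kb before that of Olig1. Olig3 (ENSMUSG00000045591) lies on chromosome 10 at 19356533 to 19358604, plus strand, with 1 exon. None of the 3 is on chromosome 13, so none lies inside the introgressed segment. The most similar stretch of their coding exons that could be aligned in frame without a gap is shown here to let their kinship, and the limits to it, be seen. Bases identical in all 3 genes are in capitals, and positions are on GRCm38.
Olig1, chr16:91270147-91270227, plus strand, coding bases 271 to 351: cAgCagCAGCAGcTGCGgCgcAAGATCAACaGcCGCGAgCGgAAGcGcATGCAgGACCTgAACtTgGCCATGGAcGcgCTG
Olig2, chr16:91226712-91226792, plus strand, coding bases 313 to 393: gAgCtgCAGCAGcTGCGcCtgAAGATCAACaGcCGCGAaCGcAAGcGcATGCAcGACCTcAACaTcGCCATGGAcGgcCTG
Olig3, chr10:19356869-19356949, plus strand, coding bases 241 to 321: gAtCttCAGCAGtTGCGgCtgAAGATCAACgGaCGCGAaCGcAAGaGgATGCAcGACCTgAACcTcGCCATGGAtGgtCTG
Of the 81 bases in this block, 60 (74.1%) were the same in all 3 genes. Olig2 and Olig3 matched at 69 bases (85.2%), Olig1 and Olig2 at 68 (84.0%), and Olig1 and Olig3 at 62 (76.5%). By this measure the chromosomal neighbours were not the closest pair. Most lower-case letters fall at the wobble positions of codons. Across whole transcripts, the longest run shared without a mismatch was 29 bases for Olig2 and Olig3 and 17 bases for either of the other pairs. That is far shorter than the 150-base reads, and the expected counts of all 3 genes were whole numbers in all 12 libraries, so no read division with another gene was visible for them.

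Promoter sequence was matched in RefSeq (GRCm38.p6) for 2 of the 3 genes, Olig2 and Olig3. It is shown because the levels of these paralogs had a different order across the genotypes. The bases before each annotated start are printed 5′ to 3′, with CG dinucleotides in capitals.
Olig2, chr16:91225300-91225456, plus strand: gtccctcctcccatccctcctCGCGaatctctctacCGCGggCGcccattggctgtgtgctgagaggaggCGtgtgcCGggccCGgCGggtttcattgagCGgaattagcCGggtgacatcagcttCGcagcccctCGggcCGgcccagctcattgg
Olig3, chr10:19356289-19356532, plus strand: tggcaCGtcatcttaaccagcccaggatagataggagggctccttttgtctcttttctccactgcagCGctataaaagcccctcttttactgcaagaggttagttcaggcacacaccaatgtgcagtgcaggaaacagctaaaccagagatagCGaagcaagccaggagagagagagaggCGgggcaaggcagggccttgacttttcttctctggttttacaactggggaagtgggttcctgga
The Olig2 stretch of 157 bases held 14 CG dinucleotides and the Olig3 stretch of 244 bases held 4. Over the full RefSeq window of 300 bases, the observed-to-expected CG ratio was 0.815 for Olig2, above 80.3% of 32851 promoter windows, and 0.252 for Olig3, above 36.0% of them. The G and C content was 65.0% and 46.0%, around a median of 52.7% over all windows. The E-box letters CANNTG, which read the same on either strand, occurred once in the Olig3 window and not in the Olig2 window, and 72.3% of all windows hold them. TATAAA, searched on both strands, occurred in both windows and in 13.6% of all. These are descriptions of the reference strain's sequence, and no strain-specific sequence was read.

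RNA of Olig2, the Hedgehog-induced repressor, was plentiful on the B6 background and close to undetected on the D2 background, whichever segment the line carried. Counts of Olig2 were 532, 547 and 642 in the B6 libraries and 1056, 1273 and 1013 in B6-13D2. In D2 they were 1, 1 and 2, and in D2-13B6 they were 4, 3 and 1. The lowest library on the B6 background thus held 532 counts and the highest on the D2 background 4, with no overlap. Scaled for depth, Olig2 had 24.6 CPM ± 2.53 (SD, n = 3) in B6, 39.2 ± 3.18 in B6-13D2, 0.0535 ± 0.0332 in D2 and 0.0756 ± 0.0384 in D2-13B6. With the D2 segment on both sides, the level in B6-13D2 was 804 times that in D2 (95% interval 314 to 2950, an exact conditional binomial interval that covers counting error only). With the B6 segment on both sides, the level in B6 was 314 times that in D2-13B6 (159 to 728). These intervals are wide since 4 and 8 reads stand behind the D2 and D2-13B6 levels. In bulk RNA, fewer cells with the transcript and less transcript per cell cannot be told apart.

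Olig1, the gene of oligodendrocyte maturation, had the same division but kept a low level on the D2 background. Its counts were 646, 686 and 678 in B6 and 1070, 1138 and 990 in B6-13D2. The D2 libraries held 14, 27 and 18 counts, and the D2-13B6 libraries 34, 27 and 16. Again no library on the B6 background overlapped any on the D2 background, yet here the low libraries were clear of 0. The means were 28.7 CPM ± 0.348 (SD, n = 3) in B6, 37.5 ± 0.59 in B6-13D2, 0.718 ± 0.122 in D2 and 0.741 ± 0.194 in D2-13B6. The level in B6-13D2 was 52.1 times that in D2 (95% interval 40.3 to 68.7), and the level in B6 was 38.1 times that in D2-13B6 (30.3 to 48.5). In these libraries the ratios were lower than those of Olig2 (804 and 314). No test of that difference was made, since these levels chose the genes and the intervals leave out the spread between cultures.

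**Figure D2:**
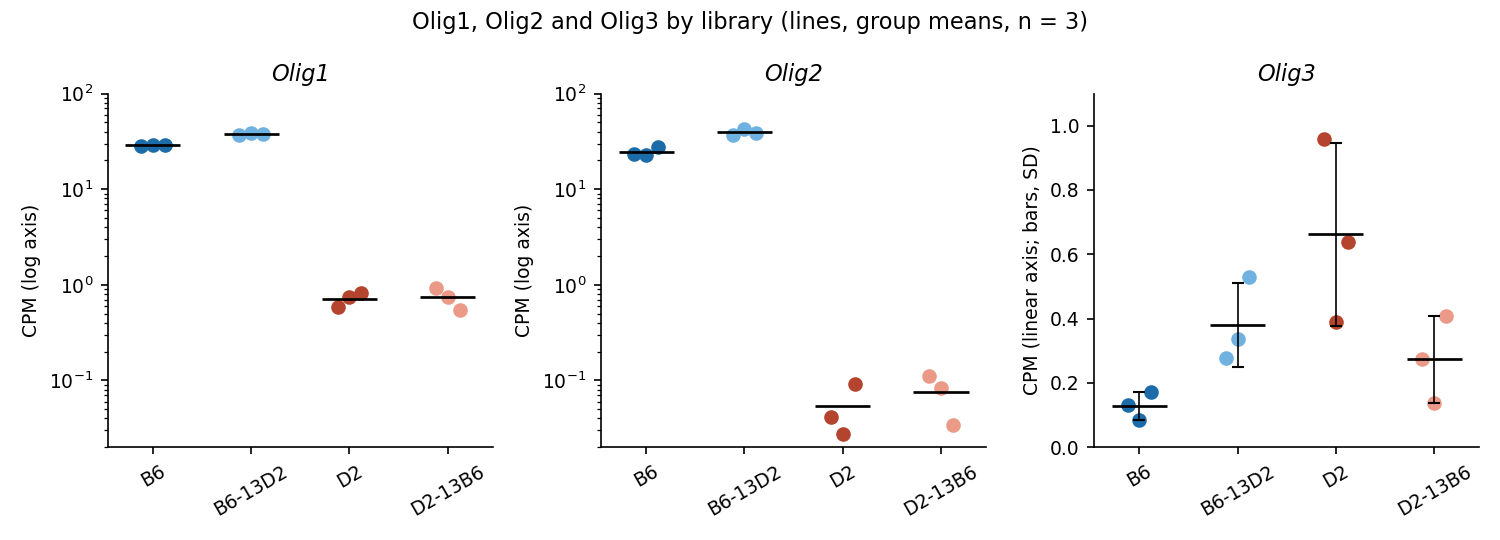
CPM of Olig1 and Olig2 (log axes) and of Olig3 (linear axis from 0) in each library of B6, B6-13D2, D2 and D2-13B6 (points, 3 per group; horizontal lines, group means; bars on the Olig3 panel, SD). Olig1 fell from 37.5 CPM in B6-13D2 to 0.718 in D2 and Olig2 from 39.2 to 0.0535, without overlap, while the ranges of neighbouring groups overlapped for Olig3, whose highest mean was 0.662 CPM.

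Marker sums of other cells differed in both background comparisons, by unequal amounts. D2-13B6 and B6 had fibroblast sums of 8550 to 8870 and 10500 to 11300 CPM, and between them Olig1 differed 38.1-fold and Olig2 314-fold. D2 and B6-13D2 were much further apart in that sum (15800 to 18700 and 3410 to 3490 CPM), and stem cell markers were lower in D2. By edgeR's adjusted p, all 9 fibroblast markers were higher and all 10 stem cell markers lower in D2 than in B6-13D2, beside 74.6% of all genes called in either direction. In D2-13B6 against B6, 4 fibroblast markers were higher and 5 lower, and 1 stem cell marker was higher and 8 lower, beside 59.0%. Scaled by the counts of the 10 stem cell markers instead of the library, Olig1 in D2 was 0.0335 of its level in B6-13D2, against 0.0192 when scaled by library, and Olig2 was 0.00217 against 0.00124. The part of cell composition in these differences was not tested.

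Per kilobase of exon, which allows genes to be compared, the chromosome 16 neighbours stood at similar levels on the B6 background. Olig1 had 13.3 CPM per kb ± 0.161 and Olig2 9.73 ± 0.999 in B6, against 17.4 ± 0.273 and 15.5 ± 1.26 in B6-13D2. On the D2 background they separated, with Olig1 at 0.332 ± 0.0562 in D2 and 0.343 ± 0.0897 in D2-13B6, and Olig2 at 0.0211 and 0.0299. Olig3 was lower than both neighbours on the B6 background, at 0.0623 CPM per kb in B6 and 0.184 in B6-13D2. On the D2 background Olig3 was above Olig2 and had 0.319 in D2, near the mean of Olig1, but 0.132 in D2-13B6, below Olig1.

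The balance within the Olig1 and Olig2 pair can be read without any scaling, as the share of their summed counts that came from Olig1. That share was 53.9% in B6 (95% exact Clopper-Pearson interval 52.3 to 55.5) and 48.9% in B6-13D2 (47.7 to 50.1). It was 93.7% in D2 (84.5 to 98.2), where 59 of 63 counts were from Olig1, and 90.6% in D2-13B6 (82.3 to 95.8), where 77 of 85 were. Single libraries ranged from 47.2% to 55.6% on the B6 background and from 89.5% to 96.4% on the D2 background. The RNA that remained on the D2 background was thus nearly all from Olig1, with either segment. The share does not depend on the normalization, but it comes from the counts that chose these genes, with 4 and 8 Olig2 reads on the D2 background, so it is a description.

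**Figure D3:**
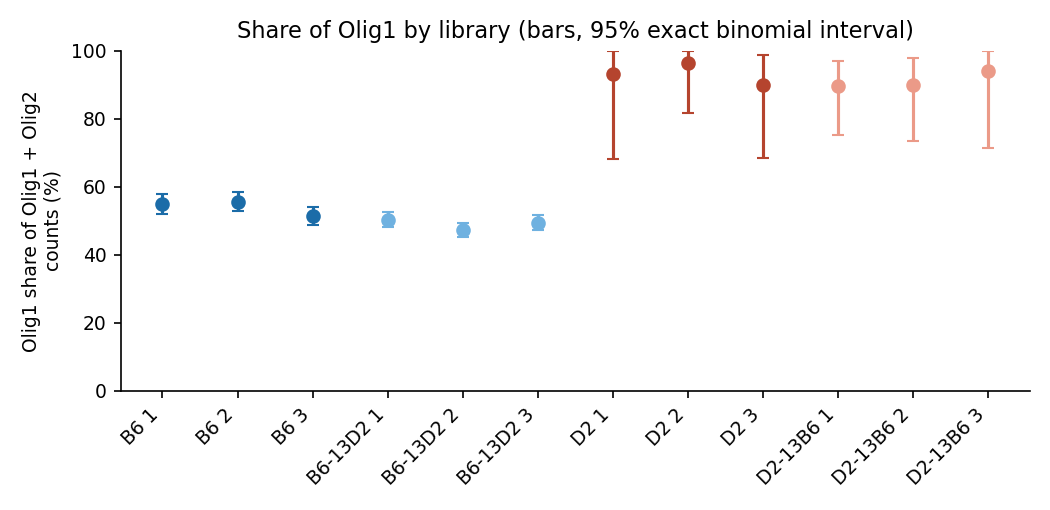
Share of the summed Olig1 and Olig2 counts that came from Olig1 (vertical axis, percent, from 0) in each of the 12 libraries (points; bars, 95% exact binomial interval, counting error only). The 6 libraries of B6 and B6-13D2 sit between 47.2% and 55.6%, and the 6 of D2 and D2-13B6 between 89.5% and 96.4%.

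Within the B6 background the congenic line had more of both RNAs than its parent. Olig1 was 1.31 times as high in B6-13D2 as in B6 (95% interval 1.23 to 1.38), with all 3 congenic libraries (37.0, 38.2 and 37.4 CPM) above all B6 libraries (28.4, 28.8 and 29.1 CPM). Olig2 was 1.59 times as high (1.5 to 1.69), at 36.6, 42.7 and 38.2 CPM against 23.4, 23.0 and 27.5. These libraries did not overlap either, although the steps are small beside the division between backgrounds. The stem cell marker sum was also higher in B6-13D2 (6270 to 6560 CPM) than in B6 (5400 to 5750 CPM), without overlap. Relative to those markers the ratios were 1.13 for Olig1 and 1.38 for Olig2. The part of cell composition in them was not tested. Within the D2 background no such step was detectable at this depth, as Olig1 in D2-13B6 was 1.05 times its level in D2 (0.737 to 1.5) and Olig2 1.61 times (0.43 to 7.29). In rising order, the Olig1 levels of D2 and D2-13B6 did not differ beyond their spread, B6 stood well above them, and B6-13D2 stood highest. The Olig2 levels had the same order.

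Olig3, the dorsal paralog, was close to the limit of detection in every genotype, and its order differed from that of the others. Counts were 3, 2 and 4 in B6, 8, 10 and 14 in B6-13D2, 23, 14 and 14 in D2, and 10, 5 and 12 in D2-13B6. By count the 3 B6 libraries were the lowest of the 12 and a D2 library the highest, but all these counts are small. Means were 0.129 CPM ± 0.0438 (SD, n = 3) in B6, 0.274 ± 0.135 in D2-13B6, 0.38 ± 0.132 in B6-13D2 and 0.662 ± 0.285 in D2. Each neighbouring pair in that order overlapped in its libraries, so no step between neighbours exceeded the spread. Between groups that are not neighbours, B6 (0.0839 to 0.171 CPM) did not overlap B6-13D2 (0.277 to 0.528) or D2 (0.389 to 0.958).

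The label of Olig3 as a gene following the segment holds only loosely in these values. Exchanging the segment on the B6 background went with a 2.92-fold higher level in B6-13D2 than in B6 (95% interval 1.36 to 6.95), and on the D2 background with a 2.35-fold higher level in D2 than in D2-13B6 (1.45 to 3.9). Both steps had the D2 segment on the higher side. However, groups with the same segment also differed in value: D2 was 1.66 times B6-13D2 (1.04 to 2.66), and D2-13B6 was 2.06 times B6 (0.939 to 4.97). Scaled by stem cell markers, the ratio of D2 to B6-13D2 was 2.89 in place of 1.66, and that of D2-13B6 to B6 was 2.51. On the same scale, the segment ratios were 2.54 for B6-13D2 to B6 and 0.343 for D2-13B6 to D2. Background and segment steps were thus of similar size on that scale. D2-13B6 against B6-13D2, which differ in both background and segment, gave a ratio of 0.705 (0.406 to 1.21), with overlapping libraries. On matched segments the D2 background thus had the higher mean of Olig3 and the lower means of Olig1 and Olig2, and the Olig3 difference was by far the smallest.

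Against all 17148 genes that passed the filter on low counts, Olig1 and Olig2 had among the largest background differences. Differences here are log2 fold changes from edgeR, printed as a description since they served to choose the genes. Olig2 differed by -9.52 in D2 against B6-13D2 and by -8.22 in D2-13B6 against B6, and by the smaller of both sizes it ranked 6 of 17148. Olig1 differed by -5.70 and -5.24 and ranked 44, among 48 genes with a size of at least 5 in both comparisons. A gene is said here to follow the background when it passed an adjusted p of 0.05 in both comparisons with the same sign, which 29.1% of the tested genes did, and 5.9% did so with a log2 difference of 1 or more in each. Following the background is therefore common in these cells, and the size of the Olig1 and Olig2 differences is not. Olig3 differed by 1.52 in B6-13D2 against B6 and by -1.25 in D2-13B6 against D2, ranking 86 by the smaller size. The matching rule for the segment was met by 7.33% of genes, and by 0.554% with a log2 difference of 1 or more in each comparison.

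**Figure D4:**
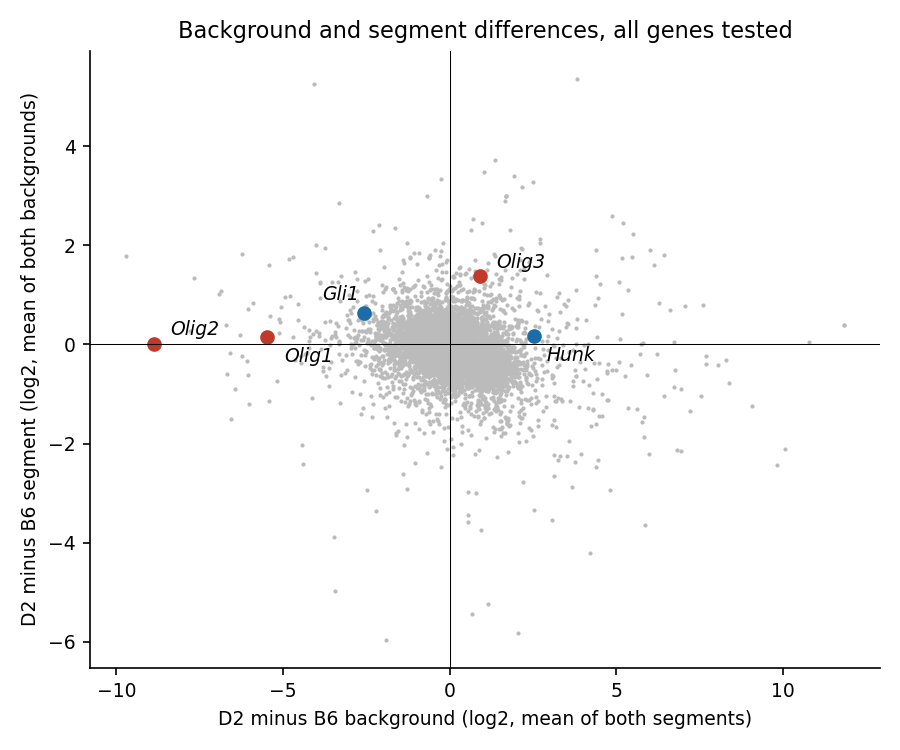
D2 minus B6 background difference (horizontal axis, log2, mean over both segments) against D2 minus B6 segment difference (vertical axis, log2, mean over both backgrounds) for all 17148 genes tested (grey points), with the Olig genes in red and Gli1 and Hunk in blue. Olig2 and Olig1 lie far to the left and near 0 on the vertical axis, while Olig3 lies above 0 on both axes.

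Across the 12 libraries Olig1 and Olig2 ran in parallel, with a Pearson r of 0.999 for log2(CPM + 1). The r of Olig3 was -0.432 with Olig1 and -0.407 with Olig2. All 12 points of such an r share their group and line, so it is a description of the group pattern. The genes most like Olig1 were Ubd (r = 0.999), which encodes a ubiquitin-like modifier, then Elobl, Padi3 and Nod1 (each 0.997) and Padi2 (0.996). Padi2 and Padi3 encode enzymes that convert arginine in proteins to citrulline, and Nod1 an intracellular sensor of bacterial peptidoglycan. Reads of Padi2 were divided with other loci. The list for Olig2 was nearly the same, with Ubd (0.999), Padi3 (0.998), and Nod1, Elobl and Aox3 (each 0.996), Aox3 being an aldehyde oxidase. They lie on chromosomes 1, 4, 6, 11 and 17, and none is a neighbour of Olig1. Nod1, the most abundant of them, had 53.3 CPM ± 2.52 (SD, n = 3) in B6, 64.1 ± 3.35 in B6-13D2, 3.49 ± 0.762 in D2 and 3.27 ± 0.276 in D2-13B6. Ubd had 9.85 CPM ± 0.386 in B6 and 12.7 ± 0.922 in B6-13D2, against 0.0278 ± 0.0482 in D2 and no count in D2-13B6. Such likeness was not rare, since 77 protein-coding genes reached an r of 0.95 with Olig1 and 82 with Olig2, of 607 whose group means spanned at least 2 on that scale.

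No gene came near Olig3 in that sense. The highest r values with Olig3 were 0.782 for Gm4302, 0.778 for H2-Eb1, a chain of the major histocompatibility complex, 0.774 for Aass, an enzyme of lysine breakdown, 0.693 for Stab2, a scavenger receptor, and 0.675 for Gm8994. At the counts of Olig3 these r values are weak and no finding, and reads of Gm4302 and Gm8994 were divided with other loci. Aass and H2-Eb1 had the order B6, D2-13B6, B6-13D2, D2 in their means, as Olig3 did, at levels up to 26.0 and 30.7 CPM in D2.

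The genes around Olig1 and Olig2 on chromosome 16 did not share their difference. Of 75 genes annotated within 1 Mb, 49 were in the table and 27 passed the filter. In D2 against B6-13D2, 12 of the 27 were called higher and 12 lower by edgeR (Benjamini-Hochberg adjusted p under 0.05), beside 74.6% of all genes tested called in either direction (38.0% higher, 36.7% lower). In D2-13B6 against B6, 7 were higher and 10 lower, beside 59.0% (24.5% higher, 34.6% lower). The median log2 fold change over the 27 was -0.24 and -0.06 in these comparisons, and 0.00 and -0.06 over all genes. By the rule stated, 11 of the 27 followed the background, 4 higher and 7 lower with D2, beside 29.1% of all genes.

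The nearest tested genes on either side differed by less than 1 on the log2 scale in both background comparisons. Paxbp1, whose start is 180.9 kb before that of Olig2, had 72.8 CPM ± 1.03 (SD, n = 3) in B6, 70.2 ± 3.05 in B6-13D2, 50.0 ± 3.56 in D2 and 58.9 ± 1.54 in D2-13B6. The fitted log2 differences of Paxbp1 were -0.49 (SE 0.048, edgeR adjusted p 3.98e-08) and -0.30 (SE 0.047, edgeR adjusted p 2.53e-05), so it was lower with D2 on both segments by under 1 on the log2 scale. Ifnar2, an interferon receptor subunit that starts 103.0 kb after Olig1, had 20.2 CPM in B6, 12.7 in B6-13D2, 24.3 in D2 and 16.9 in D2-13B6. It was higher in D2 than in B6-13D2 by 0.94 (SE 0.067, edgeR adjusted p 5.1e-10) and lower in D2-13B6 than in B6 (-0.26, SE 0.066, edgeR adjusted p 0.00233), so it did not follow the background. The difference between these values, -1.20, itself passed the test (SE 0.094, edgeR adjusted p 3.25e-09), as such a difference did for 64.5% of all genes. Paxbp1 had reads divided with other loci and is uncertain to that extent.

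Among the 11 neighbours that followed the background, 3 differed by 1 or more on the log2 scale on both segments. Hunk, a protein kinase gene 839.4 kb from Olig2, went the other way from Olig1 and Olig2: it had 11.4 CPM ± 0.432 (SD, n = 3) in B6 and 13.4 ± 0.968 in B6-13D2, against 74.8 ± 1.52 in D2 and 68.8 ± 1.91 in D2-13B6. The fitted log2 differences of Hunk were 2.48 (SE 0.052, edgeR adjusted p 1.65e-17) and 2.60 (SE 0.055, edgeR adjusted p 1.1e-16). Mrap, an accessory protein of the melanocortin receptors, was also higher with D2, by 1.76 (edgeR adjusted p 0.0195) and 4.12 (edgeR adjusted p 4.32e-05), from at most 0.816 CPM on average. Without B6-13D2 replicate 2 its first value was 1.16, without B6-13D2 replicate 3 it was 1.64, and without D2 replicate 1 it was 1.65, and in each case the call was lost. Gm17518, a long noncoding RNA, was lower with D2, by -2.55 (edgeR adjusted p 0.000734) and -2.51 (edgeR adjusted p 0.00295), at 0.299 CPM in B6 and 0.0481 in D2-13B6. The other 8 differed by less than 1 in at least 1 of the comparisons. Synj1 and Ifnar1 were higher with D2, and Paxbp1, Scaf4, Gart, Cryzl1, Itsn1 and Atp5o lower. Reads of Gart, Cryzl1 and Atp5o were divided with other loci, as those of Paxbp1 were. Ifnar1, which encodes the other subunit of the receptor, exceeded its B6 level in D2-13B6 by only 0.12 (edgeR adjusted p 0.0411), a call lost without B6 replicate 1 or 3, B6-13D2 replicate 3, D2 replicate 2, or D2-13B6 replicate 1 or 2, with values of 0.08 to 0.12.

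Around Olig3 on chromosome 10, 12 genes of 37 annotated within 1 Mb passed the filter. None of the 12 followed the segment by edgeR, none did at an unadjusted p under 0.05 and none with DESeq2, beside 7.33% of all genes, while 7 followed the background, beside 29.1%. The nearest tested genes differed from Olig3 in direction when the D2 segment was put on the B6 background. Tnfaip3, an inhibitor of NF-kappa-B signalling, starts 340.9 kb before Olig3 and was lower in B6-13D2 than in B6 (-0.89, SE 0.114, edgeR adjusted p 2.86e-06) and lower in D2-13B6 than in D2 (-0.98, SE 0.096, edgeR adjusted p 9.66e-08). Ifngr1, an interferon gamma receptor subunit 235.4 kb after Olig3, was lower by -0.97 (SE 0.097, edgeR adjusted p 1.24e-07) and -0.49 (SE 0.08, edgeR adjusted p 4.48e-05). Both genes were thus lower in either congenic line than in its parent, which the Olig3 means were not.

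**Figure D5:**
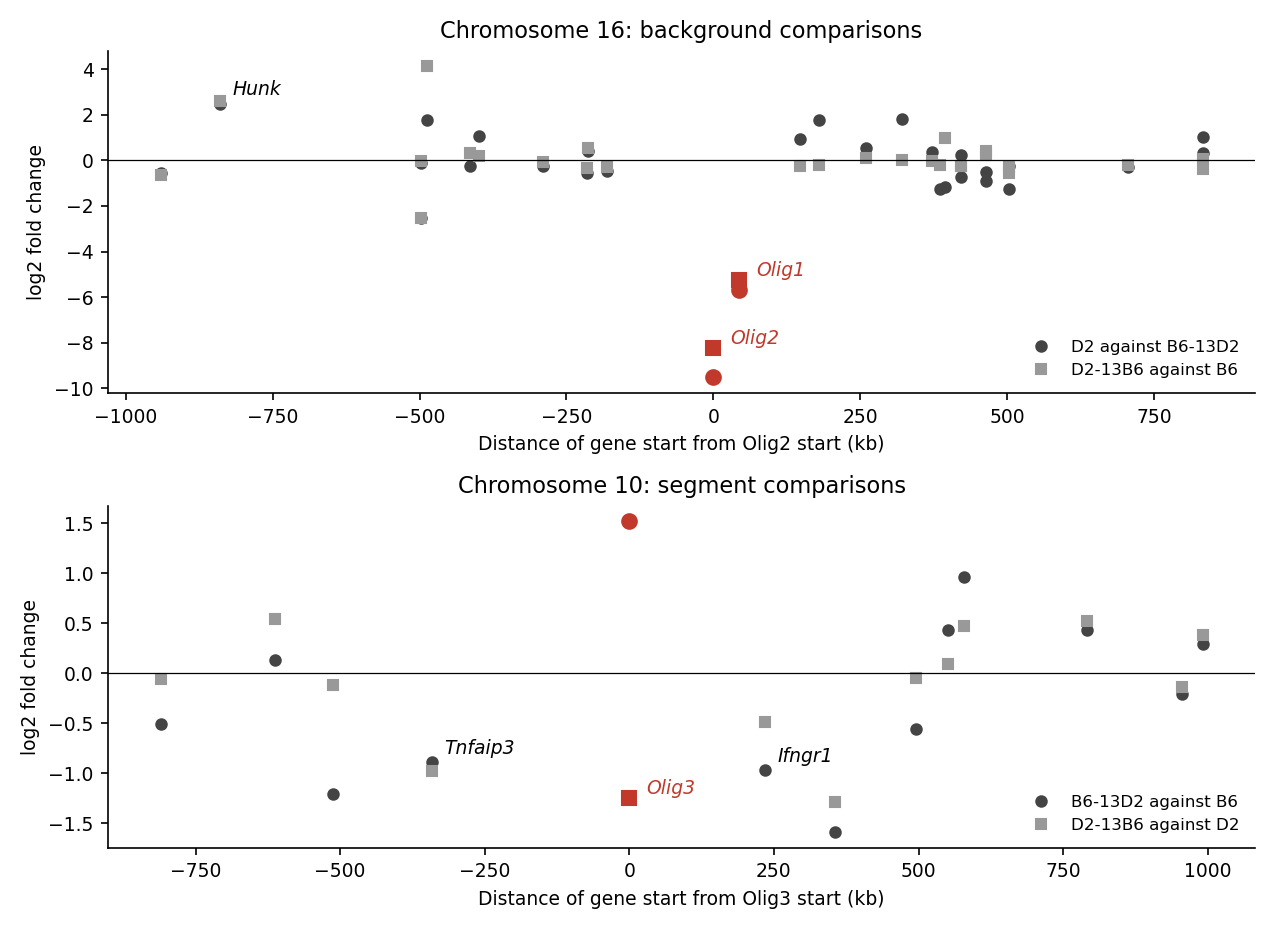
Log2 fold changes of tested genes within 1 Mb (vertical axis) by distance of the gene start from that of Olig2 (upper panel, background comparisons D2 against B6-13D2 and D2-13B6 against B6) or Olig3 (lower panel, segment comparisons B6-13D2 against B6 and D2-13B6 against D2), in kb on the horizontal axis, with the Olig genes in red. Olig1 (-5.70 and -5.24) and Olig2 (-9.52 and -8.22) lie far below the genes beside them, and Olig3 (1.52 and -1.25) is the gene in its panel with the highest circle.

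Upstream of Olig2, the Hedgehog pathway was expressed in all genotypes, and its standard targets did not move together: Gli1 followed the background in the direction of Olig2, while Ptch1 and Hhip did not follow it. Gli1, a transcription factor of the pathway and one of its targets, had 10.4 CPM ± 1.11 (SD, n = 3) in B6 and 15.9 ± 1.85 in B6-13D2. It had 2.71 ± 0.276 in D2 and 1.71 ± 0.131 in D2-13B6, so groups of different background did not overlap in mean ± SD. The log2 fold changes were -2.56 (SE 0.118, edgeR adjusted p 9.47e-13) and -2.60 (SE 0.129, edgeR adjusted p 1.37e-11), smaller than those of Olig1 or Olig2. Ptch1, the Hedgehog receptor, lies on chromosome 13, as the introgressed segment does, and whether it is inside the segment was not determined. Inside it, both sides of each background comparison would carry the same Ptch1 allele. Ptch1 had 54.1 CPM in B6, 70.3 in B6-13D2, 42.9 in D2 and 65.2 in D2-13B6. It was lower in D2 than in B6-13D2 (-0.71, edgeR adjusted p 5.38e-12) but higher in D2-13B6 than in B6 by 0.27 (edgeR adjusted p 5.46e-06). Hhip, which sequesters the ligand, was higher in the first comparison by 2.61 (edgeR adjusted p 5.84e-10) and lower in the second (-0.68, edgeR adjusted p 0.00259). Its reads were divided with other loci. Hhip means were 0.63 CPM in B6-13D2, 1.48 in D2-13B6, 2.37 in B6 and 3.86 in D2, an order shared with the fibroblast sums. The part of cells with fibroblast markers in the Hedgehog pathway values was not tested. Ihh, a Hedgehog ligand, went up with D2, from 0.113 CPM in B6 and 0.11 in B6-13D2 to 0.576 in D2 and 0.513 in D2-13B6 (2.39 and 2.13 on the log2 scale, edgeR adjusted p 0.0013 and 0.00537). Shh, the ligand of the ventral neural tube, was under 0.2 CPM on average in each group and did not pass the filter. Of the 13 tested pathway genes of 14 listed, 7 were higher and 4 lower in D2 against B6-13D2, and 4 higher and 5 lower in D2-13B6 against B6, beside 74.6% and 59.0% of all genes called. In all, 6 followed the background, 3 in each direction, beside 29.1% of all genes. The median log2 differences over the 13 were 0.65 and 0.01, beside 0.00 and -0.06 over all genes.

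The patterning factors that share the neural tube with Olig2 and Olig3 did not divide by background as a group. Nkx6-2, a ventral homeodomain factor, was the only 1 of 6 tested ventral factors (10 listed) that followed the background (29.1% of all genes did). It had 8.93 CPM ± 0.502 (SD, n = 3) in B6, 13.0 ± 0.437 in B6-13D2, 6.3 ± 0.712 in D2 and 3.15 ± 0.378 in D2-13B6. The fitted log2 differences of Nkx6-2 were -1.05 (SE 0.094, edgeR adjusted p 1.17e-08) and -1.51 (SE 0.107, edgeR adjusted p 1.47e-09), and its reads were divided with other loci. The other 5 ventral factors were higher in D2 than in B6-13D2. In D2-13B6 against B6 none of the 6 was called higher and 3 were lower, and whether the group's difference changed between these comparisons was not tested. Among 10 tested dorsal factors of 13 listed, 6 were higher and 1 lower in D2 against B6-13D2, and 2 higher and 1 lower in D2-13B6 against B6, beside 74.6% and 59.0% of all genes called. Msx2, a dorsal homeodomain factor, also lies on chromosome 13, and whether it is inside the segment was not determined. It was higher in D2 than in B6-13D2 by 2.28 (SE 0.106, edgeR adjusted p 1.01e-12). In D2-13B6 it was lower than in B6 (-0.60, SE 0.096, edgeR adjusted p 3.66e-05). The part of cells with fibroblast markers in these values was not tested.

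Among bHLH genes, the large background difference was not shared by the closest relatives of the Olig genes. Bhlhe22 and Bhlha15, the tested 2 of 3 related bHLH genes, had at most 1.66 CPM on average. Bhlhe22 was higher in D2 than in B6-13D2 by 2.24 (SE 0.316, edgeR adjusted p 4.32e-06), while its difference between D2-13B6 and B6 was 0.60 (SE 0.261, edgeR adjusted p 0.0588). That second value passed without B6 replicate 1 (0.74), D2 replicate 3 (0.59) or D2-13B6 replicate 3 (0.74). Bhlha15 was lower in D2 than in B6-13D2 (-1.67, SE 0.296, edgeR adjusted p 6.04e-05) and higher in D2-13B6 than in B6 by 0.98 (SE 0.276, edgeR adjusted p 0.00556). Neither had the same sign and a call in both comparisons. Of the proneural bHLH factors, which start neuronal differentiation, 4 of 14 passed the filter. All 4 were higher in D2 than in B6-13D2 and 2 were higher in D2-13B6 than in B6, beside 38.0% and 24.5% of all genes.

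The listed partners and cofactors of OLIG proteins changed less than Olig1 and Olig2. Their levels varied widely, in B6-13D2 from 2.05 CPM for Nfia to 482 CPM for Hdac1. E proteins are the dimer partners of tissue-specific bHLH factors, and Id proteins bind E proteins without contacting DNA. All 7 listed were tested and all were called in both comparisons, 5 higher and 2 lower in D2 against B6-13D2, and 7 lower in D2-13B6 against B6, beside 74.6% and 59.0% of all genes called. Of the 7, 2 followed the background, a share near the 29.1% over all genes. Tcf3, which encodes the E proteins E12 and E47, had 165.0 CPM ± 5.1 (SD, n = 3) in B6, 205.0 ± 2.37 in B6-13D2, 133.0 ± 7.74 in D2 and 123.0 ± 2.54 in D2-13B6. It was lower with D2 by -0.62 (SE 0.04, edgeR adjusted p 1.24e-10) and -0.42 (SE 0.04, edgeR adjusted p 7.34e-08). Id3 was higher in D2 than in B6-13D2 by 1.90 (SE 0.078, edgeR adjusted p 1.59e-13) and lower in D2-13B6 than in B6 (-1.02, SE 0.073, edgeR adjusted p 1.95e-09). All 11 listed chromatin and transcriptional cofactors of OLIG2 were tested as well, with 3 following the background, all lower with D2, again near the 29.1% over all genes. Smarca4, the remodelling ATPase that OLIG2 recruits in oligodendrocyte precursors, stood at 323.0 CPM in B6, 328.0 in B6-13D2, 294.0 in D2 and 279.0 in D2-13B6, and its fitted log2 differences were -0.16 (SE 0.035, edgeR adjusted p 0.000568) and -0.21 (SE 0.035, edgeR adjusted p 5.99e-05).

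Markers of the cell types that Olig1 and Olig2 are known for did not move in a single direction. Of 8 motor neuron markers, 4 passed the filter, and the summed level of all 8 was 1.27 to 2.52 CPM in B6, 1.32 to 1.9 in B6-13D2, 1.87 to 2.22 in D2 and 2.6 to 2.65 in D2-13B6. In D2 against B6-13D2, Mnx1 was lower (-3.52, SE 0.641, edgeR adjusted p 7.95e-05) and Slc5a7 higher by 2.10 (SE 0.446, edgeR adjusted p 0.000366), 2 of 4 beside 74.6% of all genes. In D2-13B6 against B6, 0 of the 4 were called by edgeR, 0 at an unadjusted p under 0.05 and 0 with DESeq2, beside 59.0% of all genes called by edgeR, though without B6 replicate 2 Isl1 was called (1.2 in place of 0.63). Isl1 lies on chromosome 13, and whether it is inside the segment was not determined. Chat, which makes acetylcholine, had no count in B6, B6-13D2 or D2. Of 15 oligodendrocyte lineage markers, 11 passed the filter, 6 higher and 4 lower in D2 against B6-13D2, and 6 higher and 2 lower in D2-13B6 against B6, beside 74.6% and 59.0% of all genes called. Of the 11, 5 followed the background, 4 higher and 1 lower with D2, beside 29.1%. The higher genes were Sox8, Pdgfra, Mobp and Ugt8a, of which Mobp, like Mbp, encodes a myelin protein. The lower gene was Mbp, at 9.7 CPM ± 0.123 (SD, n = 3) in B6, 11.9 ± 1.42 in B6-13D2, 6.01 ± 0.502 in D2 and 5.35 ± 0.449 in D2-13B6. Its log2 differences were -1.0 (SE 0.1, edgeR adjusted p 5.21e-08) and -0.85 (SE 0.102, edgeR adjusted p 1.28e-06), in the direction of Olig1 and Olig2 and much smaller. The summed level of the 15 was 157 to 171 CPM in B6, 89.0 to 93.0 in B6-13D2, 203 to 223 in D2 and 154 to 166 in D2-13B6, lowest in B6-13D2. That rank rests on Cspg4, since the other 14 summed to 52.6 to 55.0 CPM in B6, 56.3 to 56.7 in B6-13D2, 52.4 to 53.0 in D2 and 70.2 to 71.3 in D2-13B6. Cspg4, a proteoglycan of oligodendrocyte precursors that mesenchymal cells also express, was the most abundant of the list. It had 108.0 CPM ± 6.97 (SD, n = 3) in B6, 34.6 ± 2.22 in B6-13D2, 163.0 ± 10.2 in D2 and 89.6 ± 5.63 in D2-13B6, an order shared with the fibroblast sums. Sox10, the defining regulator of the lineage, did not pass the filter, with means of 0.229 CPM in B6, 0.309 in B6-13D2, 0.15 in D2 and 0.0981 in D2-13B6.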

How the data were processed

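RNA was sequenced paired-end from an mRNA kit, per the labels' protocols. The authors deposited expected counts per Ensembl gene ID, made by EMASE, which divides reads that fit several places, per the file's own title. The submitters' processing notes name Bowtie 1.0.0, edgeR 3.34.1 and mm10 without a role. Strand use and the annotation are not given in the sources used here, so overlapping and antisense genes are uncertain. Every column mapped to a library. Of 43346 IDs, 42462 matched GENCODE M21 (GRCm38), and 88.1% of values were whole to within 1e-06.

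Counts were rounded, and edgeR 4.0.16 (R 4.3.3) was used for testing, with filterByExpr at a minimum count of 10, TMM, a quasi-likelihood fit with 4 group means over all 12 libraries, and Benjamini-Hochberg adjustment at 0.05 over 17148 genes. A call means an adjusted p under 0.05. Standard errors (SE) are the log2 fold change over the square root of F. CPM use TMM-scaled totals. Alternatives were DESeq2 1.42.0, RLE size factors, library totals without TMM, the replicate number as a block, all genes unfiltered, genes with a mean CPM of 1 or more, and leaving out each library. The replicate numbers come from the titles. The script was tested on simulated data. Sequences came from GENCODE M21 and RefSeq, read with Python 3.11.15.

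The members and gene lists were chosen with earlier results of these data known, so the lists' counts are descriptions. Named genes were, per member, the 5 most alike protein-coding genes, per list those called with a log2 difference of 1 or more in both background comparisons, or else the 2 most abundant, and the nearest or pattern-sharing neighbours. Shh, Sox10, Chat, Ptch1, Hhip, Mnx1 and the oligodendrocyte markers that followed the background were named outside that rule, after their values were seen.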

Additional observations from a re-analysis of the deposited data

Results flagged for a closer look

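Each value here is the log2 background difference with the B6 segment (D2-13B6 against B6) minus that with the D2 segment (D2 against B6-13D2), for named genes, those of the astrocyte, stem cell, fibroblast and primitive endoderm lists left out, whose difference passed an adjusted p of 0.05 in edgeR's quasi-likelihood test (adjusted p between 2.75e-14 and 0.0277), beside 64.5% of all genes tested. The same contrast compares both congenic lines with both parents, so it cannot be told apart from anything that all congenic libraries share. Olig1, Olig2 and Olig3 are left out, as their pattern chose them.

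Among genes with a pattern like that of Olig1 and Olig2, the background difference was smaller in size with the B6 segment for Elobl (1.00) and Aox3 (1.39). Among those like Olig3, the value was 1.19 for H2-Eb1, 1.16 for Aass, -3.68 for Stab2 and -2.89 for Gm8994. Of the neighbours on chromosome 16, Paxbp1 had 0.19, Ifnar2 -1.20, Ifnar1 -0.42, Gart 0.46 and Cryzl1 0.70. Beside Olig3 on chromosome 10, the values were -1.87 for Tnfaip3 and -1.46 for Ifngr1.

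Among bHLH genes and their partners, Bhlhe22 had -1.65, Bhlha15 2.65, Tcf3 0.19, Id3 -2.92 and Hes1 -2.41. The patterning factors gave -0.46 for Nkx6-2, -2.88 for Msx2 and -1.54 for Lmx1b. The OLIG2 cofactor Hdac1 had 0.43. In the Hedgehog pathway, Ptch1 had 0.98 and Hhip -3.28. Of the lineage markers, Mnx1 had 4.13, Slc5a7 -1.72, Cspg4 -2.51, Cnp 1.02, Tubb3 -0.48 and Nes -0.81. Reads of Hdac1 and Cnp were divided with other loci. Fibroblast markers summed to 15800 to 18700 CPM in D2 and 3410 to 3490 in B6-13D2, but to 8550 to 8870 in D2-13B6 and 10500 to 11300 in B6, and their part in these values was not tested.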

How the results depend on the processing

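Leaving out each library in turn kept every Olig1 and Olig2 background ratio far below 1: 0.0182 to 0.0207 for Olig1 and 0.00085 to 0.00166 for Olig2 in D2 against B6-13D2, and 0.0228 to 0.0292 and 0.00248 to 0.00392 in D2-13B6 against B6. The Olig2 ratio of B6-13D2 to B6 ranged from 1.52 to 1.69, the latter without B6 replicate 3, and the Olig3 ratio of B6-13D2 to B6 from 2.38 to 3.5. Scaling by stem cell markers, chosen after seeing the data, moved 4 ratios past their counting interval: Olig1 in D2 against B6-13D2 to 0.0335, Olig1 in B6-13D2 against B6 to 1.13, Olig2 there to 1.38, and Olig3 in D2 against B6-13D2 to 2.89. Within their wider intervals, it also took Olig2 in D2 against B6-13D2 from 0.00124 to 0.00217, and Olig1 in D2-13B6 against D2 from 1.05 to 0.845. Genes following the background numbered 4348 to 5031 over the alternatives, against 4986, and those following the segment 973 to 1344, against 1257. Of the genes called in D2-13B6 against B6, 41.5% were higher, and 49.3% with DESeq2 or RLE size factors. With either of these, 54.8% of the genes following the segment were higher with D2, against 41.2% in the reported fit, and 58.8% were once genes under a mean CPM of 1 had been left out. A mean CPM of at least 1 left 623 genes that follow the background by 1 or more on the log2 scale, against 1011, and 48 that follow the segment, against 95.

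With the replicate number as a block, 4938 and 1208 genes followed the background and the segment, and 12706 were called in D2 against B6-13D2. Deviations of same-numbered libraries had a mean correlation of -0.0108 (18 pairs, -0.125 to 0.0683), so the numbers gave no pairing. Of 3848 values of named genes under the alternatives, 72 lost their call, 41 gained one and 0 reversed. Olig3 (2 to 23 counts) and Olig2 on the D2 background (1 to 4 counts) were limited by depth.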
